A study of Mus musculus with 8 samples.

Results

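The genes described here are 9 genes of fatty acid handling among the 55450 genes of a mouse liver single-cell data set. They are the 3 peroxisome proliferator-activated receptors Ppara, Ppard and Pparg, the fatty acid binding proteins Fabp1 and Fabp4, the acyl-CoA synthetase Acsl1, the carnitine palmitoyltransferase Cpt1a, the angiopoietin-like protein Angptl4 and the pyruvate dehydrogenase kinase Pdk4. They were taken by symbol, and each symbol matched 1 row of the matrix. Single cells were dissociated from the livers of 8 wild-type C57BL/6 mice and measured on the 10x Genomics Chromium platform (3′ chemistry, V3), in which a random barcode, the unique molecular identifier (UMI), is added to each mRNA copy that is caught, so that copies can be counted. Each mouse gave 1 library. The 2 control mice received a normal diet and drinking water. The 3 HFD+F+CCl4 mice received a high-fat diet, fructose solution and weekly intraperitoneal injections of carbon tetrachloride (CCl4), a liver toxin, and the 3 WD+F+CCl4 mice received a western diet with the same fructose solution and CCl4. Both models develop non-alcoholic steatohepatitis (NASH) with fibrosis, and the 6 mice are called NASH mice here. No group received a diet without CCl4 or CCl4 without a diet, so diet and toxin cannot be told apart. Neither age nor sex is stated in the sources used here.

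Of 88581 barcodes, 80474 passed the limits of over 500 genes and a mitochondrial share below 25% of UMIs. They were clustered without the 9 genes and their pathway genes, and 67652 cells fell into 15 classes named from marker genes (written with "-like"), while 12822 cells in 8 clusters stayed unnamed. Every class had UMIs of all its markers. The control libraries were the thinner ones. Control replicate 2 had 4168 cells with a median of 992.5 UMIs, while the medians of the other 7 mice lay between 2397 and 4278. The unnamed clusters held 5873 and 2914 of the control cells. With at least 20 cells per mouse required, both control mice had enough cells of 8 classes, and neither had enough macrophage-like, Kupffer cell-like, stellate cell- or fibroblast-like or erythroid-like cells. Control replicate 1 alone gave hepatocyte-like (38), patrolling monocyte-like (31) and NK cell-like (259) cells. Unnamed clusters 13 and 14 had hepatocyte genes such as Mug1 and Mup11 among their leading genes. They held 25 and 2007, and 1826 and 28, cells of control replicates 1 and 2, and 1 NASH cell. These cells enter no hepatocyte-like value, and whether they are hepatocytes or carry free RNA was not tested. Libraries shared 732 barcode sequences among 79739 different ones. Levels are summed UMIs of a gene scaled to the total UMIs of the class in a mouse (CPM).

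PPARs are nuclear receptors that bind fatty acids and their derivatives and act on DNA as heterodimers with retinoid X receptors. In the liver PPARα, made from Ppara, is the receptor of hepatocytes that governs fatty acid oxidation and ketone production during fasting. PPARδ, made from Ppard, is found in most tissues, and PPARγ, made from Pparg, directs fat cell formation and is also used by macrophages that take up lipid. Cpt1a, Acsl1, Fabp1, Fabp4, Angptl4 and Pdk4 are known targets of 1 or more of these receptors. Of these, Fabp1, Fabp4, Acsl1 and Cpt1a cover the path of a fatty acid from binding in the cytosol to entry into the mitochondrion.

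PPAR and retinoid X receptor dimers prefer a direct repeat of the half-site AGGTCA with 1 base between the copies. The degenerate repeat, made of 2 copies of AGGNCA with any 1 base between them and searched on both strands, is present in 125 of 32851 mouse promoters of 300 bases (0.381%) in the RefSeq table for GRCm38, and the strict repeat of AGGTCA, which is part of it, in 13 (0.0396%). Promoters were on hand for 7 of the 9 genes, in 10 sequences of 57 to 250 bases. They are shorter than the 300 bases of the shares above, so their count is not a like measure. Among them 1 sequence matched, that of Fabp1. It is shown because Fabp1 is the member with the highest level in hepatocyte-like cells and the one whose level outside them is described at length. The Fabp1 promoter sequence at chr6:71199629-71199826 (GRCm38, plus strand) ends before the annotated gene, and capitals mark the match, which reads as the degenerate repeat on the minus strand and lies at bases -67 to -55 from the RefSeq start site.

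Fabp1 promoter: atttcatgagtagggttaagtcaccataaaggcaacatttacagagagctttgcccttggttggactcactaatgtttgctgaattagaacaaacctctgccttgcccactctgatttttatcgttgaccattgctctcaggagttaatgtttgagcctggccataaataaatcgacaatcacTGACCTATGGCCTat

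A match is a description of letters and was not tested as a binding site.

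Against control, the members that passed the test were mostly higher in NASH mice, with Pparg and Cpt1a passing most often. UMI counts of each class were summed per mouse and compared with edgeR's quasi-likelihood test, with p-values adjusted over all genes of a class by the Benjamini-Hochberg method and a threshold of 0.05. The members had enough counts for 56 of the 72 possible tests (9 genes in 8 classes), since Ppara passed the filter on low counts in no class and Pdk4 in 1. In HFD+F+CCl4 mice 8 of the 56 tests passed, all higher, where 3.39% of the tests over all genes passed (1.75% higher and 1.63% lower). In WD+F+CCl4 mice 16 passed, 12 higher and 4 lower, where 6.07% of all tests passed (3.08% higher and 2.99% lower). The median log2 difference of the members was 0.89 and 0.83, while the median of all genes in a class stayed within 0.1 of 0 except in granulocyte-like cells (0.160 and 0.150). Both comparisons use the same 2 control mice, so their calls are not separate evidence.

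How firm these calls are depends on the control libraries. Without control replicate 1, which leaves the shallow library as the only control and assumes that it varies like the other mice, 0 tests passed for HFD+F+CCl4 mice and 3 for WD+F+CCl4 mice. Without control replicate 2, 2 and 9 passed. With the summed level of 18 hepatocyte genes as a covariate 3 and 1 passed, but that sum itself differed between control and NASH mice in most classes. With the barcodes ranked as doublets removed 2 and 9 passed. Control and NASH cells lay mainly in different clusters in classical monocyte-like cells (25 and 2) and B cell-like cells (10 and 9). The part of this split in the calls of these classes was not tested. Levels within 1 cluster of these classes are given for Pparg only.

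**Figure D1:**
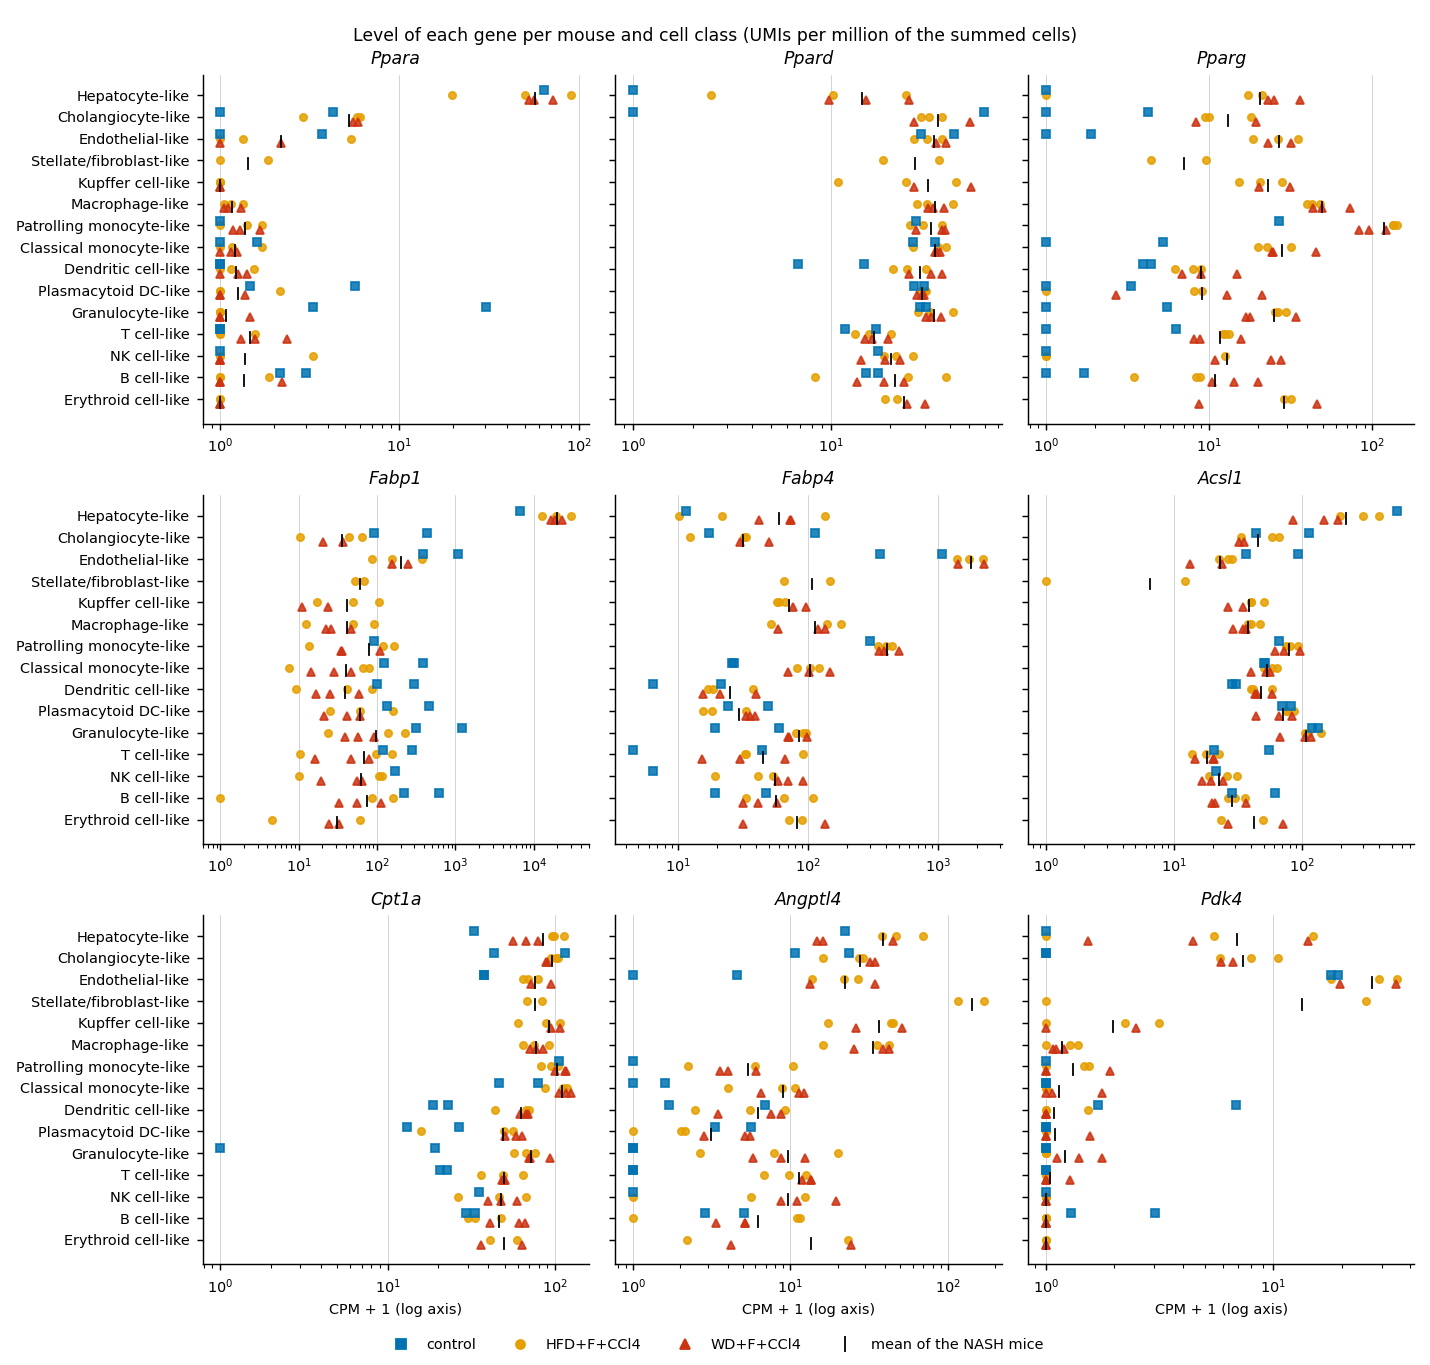
CPM of each of the 9 genes (log axis of CPM + 1) in the 15 cell classes, with 1 point per mouse with at least 20 cells, coloured by group, and a black tick at the mean of the NASH mice. Ppara and Fabp1 stand out in hepatocyte-like cells, Pparg in patrolling monocyte-like cells, Fabp4 and Pdk4 in endothelial cell-like cells and Angptl4 in stellate cell- or fibroblast-like cells, while Ppard and Cpt1a are spread over all classes. Pdk4 also reached 24.7 CPM in stellate cell- or fibroblast-like cells of HFD+F+CCl4 replicate 1.

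**Figure D2:**
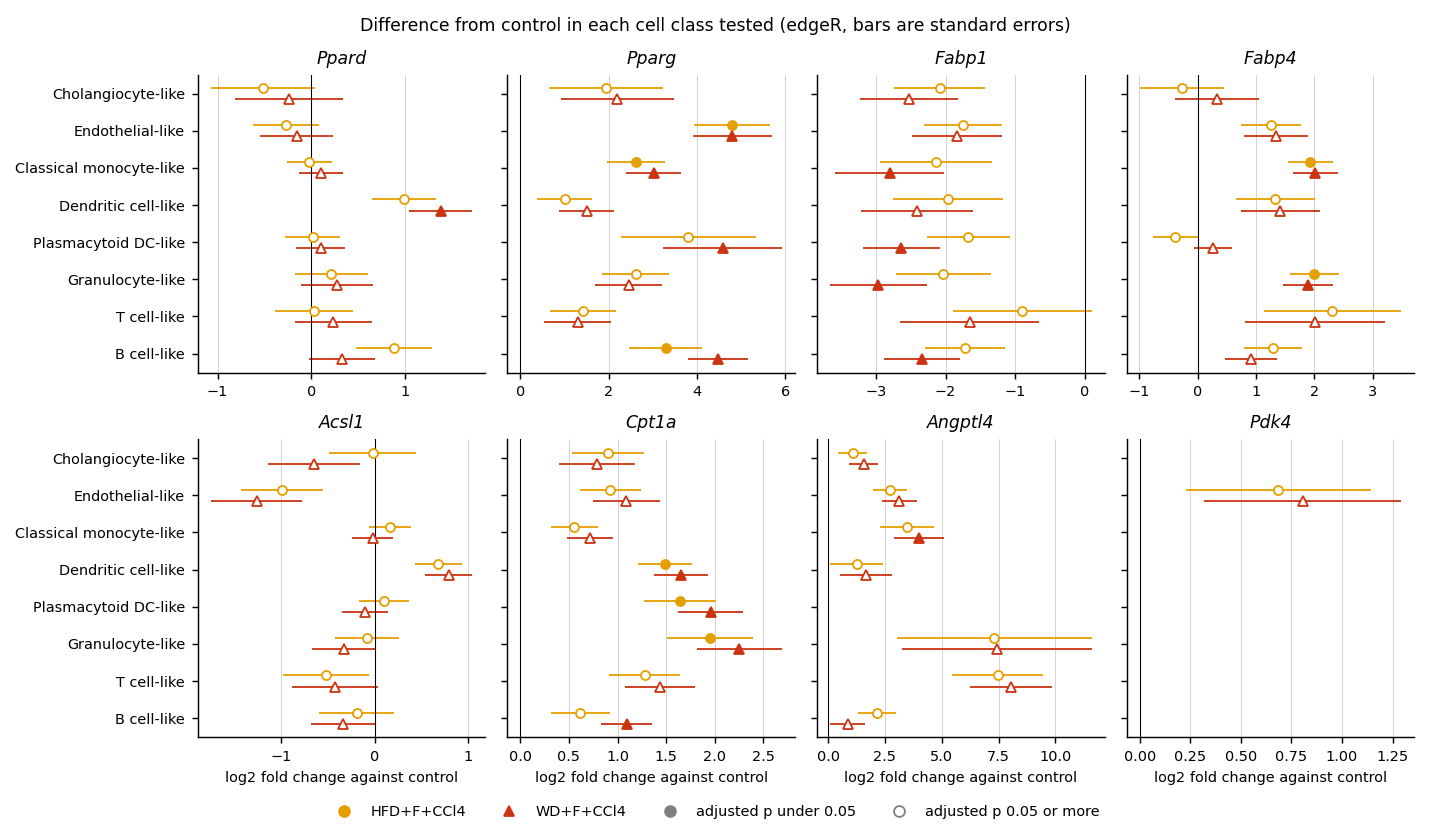
Log2 difference from control with its standard error for each member and class tested, in both models, with filled points where the adjusted p was under 0.05. Pparg and Cpt1a lie above 0 in every class tested and Fabp1 below 0, while Acsl1 lies around 0, and the points of Angptl4 in T cell- and granulocyte-like cells have no control UMIs and depend on the prior count of the fit.

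Ppara, the receptor of hepatic fatty acid oxidation, was the rarest of the 3 receptors. All kept cells together held 433 Ppara UMIs, and 58.4% of them lay in hepatocyte-like cells, which were 1.21% of the cells. In hepatocyte-like cells its level was 48.9, 89.6 and 18.6 CPM in HFD+F+CCl4 mice, 55.5, 51.5 and 70.5 CPM in WD+F+CCl4 mice and 63.2 CPM in control replicate 1, from 6 UMIs there. The control value lies inside the range of the NASH mice. The mean over NASH mice was 55.8 ± 23.7 CPM (SD, n = 6), followed by cholangiocyte-like cells with 4.23 ± 1.31 CPM (n = 5), and these ranges did not overlap. Every other class had a mean of at most 1.18 CPM, and Kupffer cell-like and erythroid-like cells had no Ppara UMI. After thinning each cell to 1000 UMIs, a median of 5.98% of hepatocyte-like cells of NASH mice (range 0% to 10.9%, unthinned median 17.9%) had a Ppara UMI, against 0.0361% of macrophage-like cells (unthinned 0.0720%), at median depths of 2208.75 and 5985 UMIs. The thinned share of hepatocyte-like cells left out 114 shallower cells. The only Ppara test the counts allowed was between the models in hepatocyte-like cells, where the log2 difference was 0.05 ± 0.42 (SE).

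Ppard, the broadly used receptor, had 10175 UMIs and was measured in every class. Its mean over NASH mice ran from 13.4 ± 8.78 CPM in hepatocyte-like cells to 33.8 ± 9.68 CPM in cholangiocyte-like cells, and the ranges of neighbouring classes in that order overlapped throughout. Plasmacytoid dendritic cell-like cells were the steadiest, with 26.4 to 29.4 CPM in the 6 NASH mice and 28.5 and 25.5 CPM in the control mice. The 1 Ppard test that passed was in dendritic cell-like cells, with 29.5, 23.2 and 19.5 CPM in HFD+F+CCl4 mice, 31.3, 35.4 and 24.0 CPM in WD+F+CCl4 mice and 13.7 and 5.85 CPM in control mice. All 6 NASH mice lay above both control mice, and the 5.85 CPM came from 2 UMIs. Thinned to 1000 UMIs, 2.19% to 3.80% of dendritic cell-like cells of NASH mice had a Ppard UMI. The shares were 3.50% and 0.637% in control mice, so they overlapped. The log2 difference of WD+F+CCl4 mice was 1.38 ± 0.34 (edgeR adjusted p = 0.0247), and that of HFD+F+CCl4 mice was 0.99 ± 0.34 (edgeR adjusted p = 0.122). Leaving out control replicate 1 (edgeR adjusted p = 0.0653) or 2 (0.0867) ended the WD+F+CCl4 call, as did leaving out WD+F+CCl4 replicate 1 (0.0616) or 2 (0.0714) and using cells of more than 1000 genes (0.0533).

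Pparg, the lipid-storage receptor, had 12275 UMIs and was highest in patrolling monocyte-like cells. These cells hold Cd300e, Treml4, Ace and other markers of the monocytes that crawl along vessel walls. Their Pparg level was 141, 133 and 134 CPM in HFD+F+CCl4 mice, 121, 94.7 and 82.6 CPM in WD+F+CCl4 mice and 25.9 CPM in control replicate 1, from 2 UMIs in 31 cells. The 1 control value lies below all 6 NASH mice, and with 1 control mouse there was no test. Macrophage-like cells came next with 41.7, 46.9 and 39.0 CPM in HFD+F+CCl4 mice and 72.5, 48.5 and 42.5 CPM in WD+F+CCl4 mice. The means over NASH mice were 118 ± 23.7 CPM and 48.5 ± 12.3 CPM (SD, n = 6), and these ranges did not overlap, while every later pair of neighbours in the order overlapped. Cluster 8, 1 of the 2 patrolling clusters, came mostly from HFD+F+CCl4 replicate 1, and in cluster 1, which held most of the patrolling cells of the other NASH mice, Pparg was 93.2 to 134 CPM in the 6 NASH mice. After thinning to 1000 UMIs, 8.40% to 13.2% of patrolling monocyte-like cells of NASH mice had a Pparg UMI (17.2% to 28.0% unthinned), against 0.293% to 1.09% of T cell-like cells (1.71% to 3.77% unthinned), at similar median depths of 2419.75 and 2438.25 UMIs. Thinning left out 591 patrolling monocyte-like and 192 T cell-like cells.

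Over all kept cells of a mouse, Pparg was 30.3 to 45.0 CPM in NASH mice and 1.03 and 2.26 CPM in control mice. Patrolling monocyte-like cells numbered 31 and 9 in the control mice and 1162 to 3072 in the NASH mice, and macrophage-like cells 14 and 4 against 1128 to 3088. Fewer cells of a class and less RNA per cell cannot be told apart at this level, and the part of each was not tested.

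Within classes, Pparg was higher in NASH mice in B cell-like, classical monocyte-like and endothelial cell-like cells in both models and in plasmacytoid dendritic cell-like cells of WD+F+CCl4 mice. That is 3 of 8 and 4 of 8 tests. In classical monocyte-like cells, the inflammatory monocytes with Ly6c2 and Ccr2, Pparg was 21.6, 30.7 and 18.9 CPM in HFD+F+CCl4 mice, 44.6, 23.8 and 23.5 CPM in WD+F+CCl4 mice and 4.24 and 0 CPM in control mice. The groups did not overlap. The log2 difference was 2.62 ± 0.65 (edgeR adjusted p = 0.0403) in HFD+F+CCl4 mice and 3.02 ± 0.62 (edgeR adjusted p = 0.0132) in WD+F+CCl4 mice. The control cells of this class lay mainly in cluster 25 and the NASH cells in cluster 2. In cluster 2 alone, the 34 and 33 control cells had no Pparg UMI and the NASH mice had 18.9 to 44.6 CPM. Both calls were lost without control replicate 1 (edgeR adjusted p = 0.282 and 0.196), and the HFD+F+CCl4 call was also lost without control replicate 2 (0.106), without HFD+F+CCl4 replicate 1 (0.0515), 2 (0.0743) or 3 (0.065), without WD+F+CCl4 replicate 2 (0.0509) and without doublets (0.126).

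In endothelial cell-like cells, Pparg was 25.6, 17.54 and 34.0 CPM in HFD+F+CCl4 mice, 31.0 and 22.1 CPM in the 2 WD+F+CCl4 mice with enough cells and 0.894 and 0 CPM in control mice. All 5 NASH mice lay above both control mice. The control value is 1 UMI, so the size is given as a ratio of pooled CPM, which was 30.5 (95% exact interval 5.40 to 1211) for HFD+F+CCl4 mice and 27.4 (4.85 to 1087) for WD+F+CCl4 mice, for counting error only. The edgeR adjusted p was 0.0204 and 0.0249. Without doublets it was 0.0924 and 0.0887, without control replicate 1 it was 0.359 and 0.353, without control replicate 2 it was 0.077 and 0.088, without HFD+F+CCl4 replicate 1 the HFD+F+CCl4 value was 0.0663 and without WD+F+CCl4 replicate 3 the WD+F+CCl4 value was 0.107.

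In B cell-like cells, Pparg was 2.49, 7.85 and 7.30 CPM in HFD+F+CCl4 mice, 18.9, 13.3 and 9.42 CPM in WD+F+CCl4 mice and 0.719 and 0 CPM in control mice. The 6 NASH mice lay above both control mice. The log2 difference was 3.29 ± 0.83 (edgeR adjusted p = 0.0276) and 4.47 ± 0.69 (edgeR adjusted p = 0.000607). Control B cell-like cells lay mainly in cluster 10 and NASH cells in cluster 9, and in cluster 9 alone the 70 and 59 control cells had no Pparg UMI while the NASH mice had 3.04 to 19.1 CPM. In the whole class 3 UMIs would be 0.431 and 6.06 CPM in the control mice, and in these fewer cells more, so the zeros set no firm limit. The HFD+F+CCl4 call rested on few cells and was lost without control replicate 1 (0.251), without HFD+F+CCl4 replicate 2 (0.362) and without replicate 1 (0.0628) or 2 (0.0532) of the WD+F+CCl4 group, and the WD+F+CCl4 call was lost without control replicate 1 (0.0511). Plasmacytoid dendritic cell-like cells had 1 control UMI, and the ratio of pooled CPM was 32.6 (95% exact interval 5.66 to 1307) in WD+F+CCl4 mice (edgeR adjusted p = 0.0478) and 18.9 (2.88 to 800.1) in HFD+F+CCl4 mice (edgeR adjusted p = 0.238). Per mouse their levels were 0, 7.09 and 8.04 CPM, 20.02, 11.8 and 1.70 CPM, and 0 and 2.32 CPM in control mice, so these groups overlapped. That WD+F+CCl4 call was lost without control replicate 1 (0.511) and without HFD+F+CCl4 replicate 1 (0.0701), 2 (0.0703) or 3 (0.0661). In granulocyte-, dendritic cell- and T cell-like cells all 6 NASH mice, and in cholangiocyte-like cells all 5, lay above both control mice without passing, at log2 differences in the first 3 of 2.61 and 2.46, 1.00 and 1.498, and 1.42 and 1.29 in the 2 models. Control T cell-like cells held 3 UMIs, and the pooled ratios of 2.59 (0.867 to 12.8) and 2.17 (0.722 to 10.7) have intervals that include 1. After thinning, shares of cells with a UMI overlapped in dendritic cell-like cells (NASH 0.208% to 0.951%, control 0.637% and 1%). They overlapped in T cell-like cells too (0.293% to 1.09%, 0% and 1.19%). In granulocyte- and cholangiocyte-like cells all NASH shares lay above the 1 control mouse left (0.476% and 0%).

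Macrophage markers were higher in all NASH mice in classical monocyte- and plasmacytoid dendritic cell-like cells and in most of them in B cell-like cells. The summed level of 8 macrophage markers (C1qa, C1qb, C1qc, Trem2, Gpnmb, Mrc1, Adgre1 and Ms4a7) ranged over the NASH mice from 595 to 1484 CPM in classical monocyte-like cells against 248 to 290.0 CPM in control mice, from 175 to 2932 against 58.9 to 194 CPM in B cell-like cells, and from 387 to 1086 against 48.3 to 132 CPM in plasmacytoid dendritic cell-like cells. In endothelial cell-like cells the ranges overlapped, at 788 to 3585 against 1276 to 1533 CPM. The B cell-like ranges overlapped too, with HFD+F+CCl4 replicate 3 (175 CPM) below control replicate 2 (194 CPM). There HFD+F+CCl4 replicate 1 had the most marker RNA (2932 CPM) and the least Pparg (2.49 CPM). WD+F+CCl4 replicate 1 had the most Pparg (18.9 CPM) at 909 CPM of markers. No marker was at 0 in NASH mice except up to 3 of 8 in B cell-like cells, and in control mice up to 4 were at 0 in endothelial cell-like cells. As a share of the level in macrophage-like cells of the same mouse, the markers reached a median of 12.2% in B cell-like cells and Pparg 20.4%. In classical monocyte-like cells the markers reached 11.9% and Pparg 53.5%, and in endothelial cell-like cells 20.5% and 61.4%. In plasmacytoid dendritic cell-like cells they reached 8.01% and 17.9%. In classical monocyte-like cells the 6 patrolling monocyte markers also moved, at 866 to 1429.5 CPM in NASH mice against 385 to 456 CPM in control mice.

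Barcodes ranked as doublets carried part of the Pparg signal in some classes. Without them the NASH mice had 0 to 19.2 CPM (median 2.56) in B cell-like cells, where Pparg no longer passed the filter on low counts. The control mice had 0.779 and 0 CPM there, and the 19.2 CPM was 1 UMI in 21 cells of HFD+F+CCl4 replicate 3. In plasmacytoid dendritic cell-like cells the NASH mice had 0 to 6.37 CPM (median 1.10) and the control mice 0 and 2.51 CPM, so the groups overlapped. The level stayed at 11.4 to 43.9 CPM (median 21.5) in classical monocyte-like, 14.0 to 31.9 CPM (median 21.2) in endothelial cell-like and 83.8 to 148 CPM (median 127) in patrolling monocyte-like cells. Control mice had 4.45 and 0 CPM in the first, 1.21 and 0 CPM in the second and 25.9 CPM, in replicate 1 alone, in the third. The part of macrophage RNA in the other Pparg calls was not tested. Of 6 genes that mark fat cells (Adipoq, Lep, Retn, Cfd, Plin1 and Cidea), Lep had 0 UMIs in every class and Adipoq 5 UMIs at most, in classical monocyte-like cells. Retn reached 18.7 CPM in granulocyte-like and Cidea 4.62 CPM in cholangiocyte-like cells, and all other values lay at 1.16 CPM or below.

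**Figure D3:**
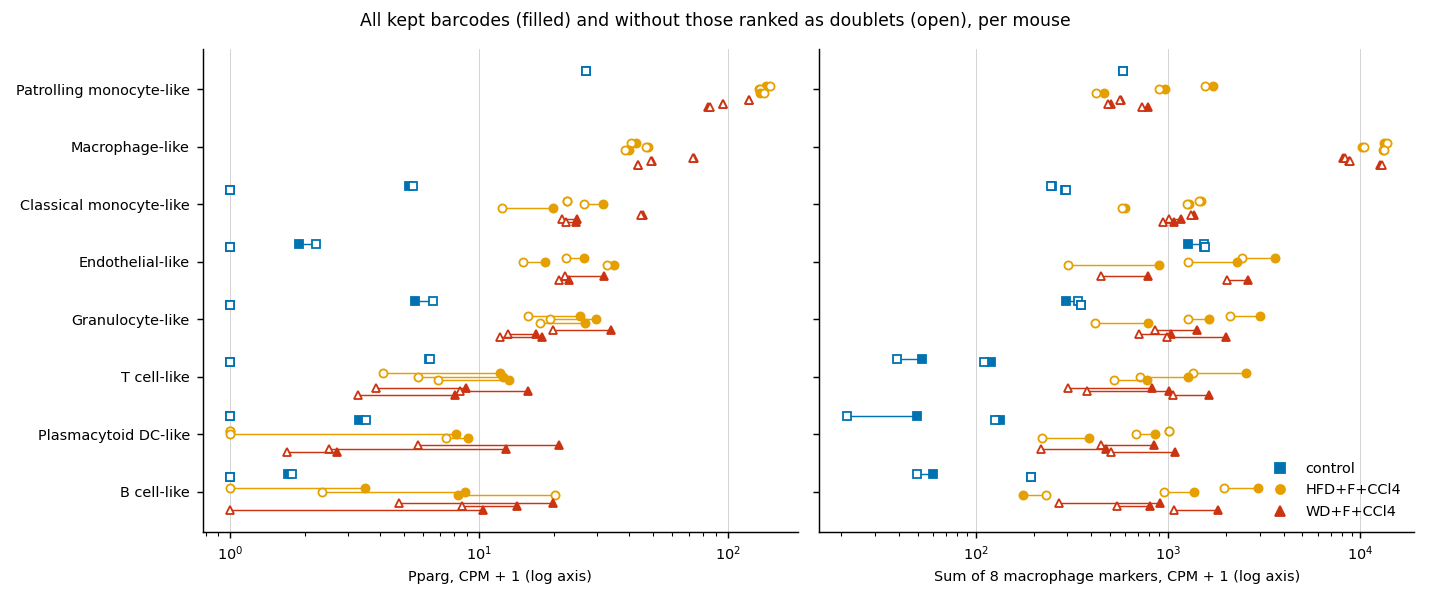
Pparg level and summed level of 8 macrophage markers (CPM) per mouse in the classes tested, with all barcodes (filled) and without the barcodes ranked as doublets (open). Removing doublets lowers Pparg in B cell- and plasmacytoid dendritic cell-like cells of NASH mice to medians of 2.56 and 1.10 CPM and leaves medians of 21.5 and 21.2 CPM in classical monocyte- and endothelial cell-like cells.

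Fabp1, the liver fatty acid binding protein, had 114398 UMIs and was a hepatocyte gene in these data. In hepatocyte-like cells it reached 19008, 29933 and 12724 CPM in HFD+F+CCl4 mice, 16468, 22747 and 18669.7 CPM in WD+F+CCl4 mice and 6694 CPM in control replicate 1. The control value lies below all NASH mice and has no second mouse beside it. The mean over NASH mice was 19925 ± 5905 CPM (SD, n = 6), and the next class, endothelial cell-like cells, had 203 ± 112 CPM (n = 5). Thinned to 1000 UMIs, 88.9% to 98.9% of hepatocyte-like cells of NASH mice had a Fabp1 UMI (99.4% to 100% unthinned), against 1.35% to 14.6% of T cell-like cells (3.21% to 34.2% unthinned), a class that should lack the gene, at median depths of 2208.75 and 2438.25 UMIs.

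In all 8 classes with both control mice the log2 difference of Fabp1 from control was below 0 in both models. In B cell-like cells it was 84.5, 161 and 0 CPM in HFD+F+CCl4 mice, 113, 31.6 and 54.2 CPM in WD+F+CCl4 mice and 219.9 and 622 CPM in control mice. All 6 NASH mice lay below both control mice there, and the same held in classical monocyte-like and granulocyte-like cells. In T cell- and plasmacytoid dendritic cell-like cells HFD+F+CCl4 replicate 2, at 154 and 157 CPM, lay above control replicate 1, at 119 and 135 CPM. In patrolling monocyte-like cells, where control replicate 1 alone had enough cells, it had 90.8 CPM and 3 of 6 NASH mice lay above it. In WD+F+CCl4 mice 4 of 8 tests passed. Fabp1 fell by 2.33 ± 0.55 on the log2 scale in B cell-like (edgeR adjusted p = 0.0114), by 2.80 ± 0.78 in classical monocyte-like (edgeR adjusted p = 0.0477), by 2.96 ± 0.69 in granulocyte-like (edgeR adjusted p = 0.0324) and by 2.63 ± 0.56 in plasmacytoid dendritic cell-like cells (edgeR adjusted p = 0.00744). In HFD+F+CCl4 mice 0 of 8 passed with edgeR, while 7 had an unadjusted p under 0.05 and DESeq2, a second count model, called 1. The calls in granulocyte- and classical monocyte-like cells were lost when either of the control mice was left out, with edgeR adjusted p of 0.163 and 0.14 without replicate 1 and 0.156 and 0.209 without replicate 2. Those in B cell- and plasmacytoid dendritic cell-like cells were lost without replicate 2, at 0.116 and 0.124. Leaving out WD+F+CCl4 replicate 2 ended the calls in B cell-like (0.0668), classical monocyte-like (0.125) and granulocyte-like cells (0.0899), and the call in classical monocyte-like cells also needed HFD+F+CCl4 replicate 1 (0.0531 without it) and WD+F+CCl4 replicate 3 (0.0775). Without doublets the granulocyte value was 0.0839.

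Other hepatocyte RNA moved the same way in the same classes. Of 18 secreted-protein and lipoprotein genes of hepatocytes, 17 were lower in WD+F+CCl4 mice in B cell-, classical monocyte-, dendritic cell-, granulocyte- and plasmacytoid dendritic cell-like cells by the same test. Their median log2 difference was -4.29 in B cell-like, -4.77 in classical monocyte-like, -5.09 in granulocyte-like and -4.49 in plasmacytoid dendritic cell-like cells. Their summed level in granulocyte-like cells was 1259 to 3046 CPM in NASH mice and 6061.5 to 6657 CPM in control mice, and in B cell-like cells 369 to 1367 against 3029 to 3682 CPM. In hepatocyte-like cells it was 44579 to 70268 CPM in HFD+F+CCl4, 12875 to 67837 CPM in WD+F+CCl4 mice and 67274 CPM in control replicate 1. Fabp1 UMIs per 100 UMIs of these genes were 18.1 to 128 in hepatocyte-like cells of NASH mice and 9.95 in control replicate 1. The medians over the other classes of a mouse were 2.31 to 15.5 in NASH and 5.06 and 19.9 in control mice. With that sum as a covariate the Fabp1 differences turned to 0.45 in B cell-like, 0.52 in granulocyte-like and 0.32 in plasmacytoid dendritic cell-like cells, while in classical monocyte-like cells the difference stayed below 0 at -3.27 ± 1.21 (edgeR adjusted p = 0.202), and none of the 4 passed the threshold. Haptoglobin (Hp), 1 of the 18 genes, lay higher in NASH mice in these myeloid classes. In granulocyte-like cells it was 951 to 1457 CPM in NASH mice and 807 and 706 CPM in control mice, and in classical monocyte-like cells 1236 to 2140 against 378 and 375 CPM. The sum and the covariate include Hp, which made up a larger part of the granulocyte-like sum in NASH than in control mice. The covariate therefore does not measure hepatocyte RNA alone in these myeloid classes. No conclusion is drawn from its granulocyte-like and classical monocyte-like values. The part of free RNA in the Fabp1 level of each class was not tested.

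**Figure D4:**
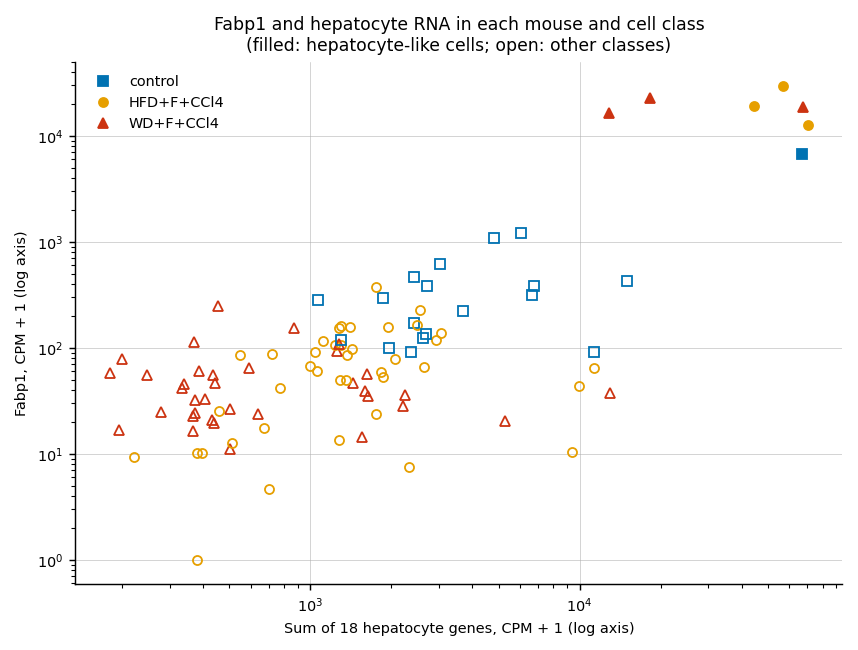
Fabp1 CPM + 1 against the summed CPM + 1 of 18 hepatocyte genes, both on log axes, with 1 point per mouse and class, coloured by group and with hepatocyte-like cells marked apart. Hepatocyte-like cells lie at 6694 CPM of Fabp1 or above, and all other named classes lie at 1206 CPM or below.

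Fabp4, the fatty acid binding protein of fat cells, macrophages and capillary endothelium, had 66160 UMIs and was highest in endothelial cell-like cells. Its level there was 1388, 1732 and 2215 CPM in HFD+F+CCl4 mice, 1414 and 2257 CPM in 2 WD+F+CCl4 mice and 1064 and 358 CPM in control mice. All 5 NASH mice lay above both control mice, but the 2 control mice differed from each other by a larger ratio than any pair of NASH mice, and the log2 differences of 1.26 ± 0.52 and 1.34 ± 0.55 did not pass (edgeR adjusted p = 0.313 and 0.342). Thinned to 1000 UMIs, 63.6% to 84.0% of endothelial cell-like cells of NASH mice and 34.1% to 45.3% of those of control mice had a Fabp4 UMI (83.3% to 96.0% and 35.2% to 46.7% unthinned), against 1.18% to 6.68% of T cell-like cells of NASH mice (3.27% to 12.6% unthinned). Median depths were 3463, 1261.5 and 2438.25 UMIs, and thinning left out 216 and 208 endothelial cell-like cells.

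Patrolling monocyte-like cells came next with 347, 399 and 439.9 CPM in HFD+F+CCl4 mice, 384, 349.7 and 503 CPM in WD+F+CCl4 mice and 298 CPM in control replicate 1. The order by mean was 1801 ± 419.6 CPM (n = 5), 404 ± 59.3 CPM (n = 6) and, in macrophage-like cells, 113 ± 49.8 CPM (n = 6), with no overlap between these 3 and overlap among all later neighbours.

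Fabp4 passed the test in classical monocyte- and granulocyte-like cells in both models. In classical monocyte-like cells it was 103, 120.5 and 81.5 CPM in HFD+F+CCl4 mice, 69.9, 102 and 147 CPM in WD+F+CCl4 mice and 26.1 and 25 CPM in control mice. The groups were far apart, and the log2 difference was 1.93 ± 0.38 (edgeR adjusted p = 0.0203) and 2.02 ± 0.38 (edgeR adjusted p = 0.00883). Control and NASH cells of this class lay mainly in different clusters, and the part of that split was not tested. In granulocyte-like cells it was 91.6, 96.6 and 79.5 CPM, 69.4, 71.1 and 97.8 CPM, and 18.2 and 58.8 CPM in control mice, the last from 2 UMIs in 22 cells. Here the log2 difference was 2.00 ± 0.42 (edgeR adjusted p = 0.0238) and 1.89 ± 0.42 (edgeR adjusted p = 0.0255), with all 6 NASH mice above both control mice. The classical monocyte calls were lost without control replicate 1 (0.203 and 0.158) and the HFD+F+CCl4 call also without control replicate 2 (0.0737). Without doublets the granulocyte values were 0.185 and 0.128, without control replicate 1 they were 0.534 and 0.622, and the HFD+F+CCl4 call was also lost without replicate 2 of the controls (0.0507) or of its own group (0.0523), and the WD+F+CCl4 call without WD+F+CCl4 replicate 2 (0.0532). The sum of 8 endothelial markers was 25.9 to 140 CPM in classical monocyte-like cells of NASH mice and 95.8 to 405 CPM in control mice, and 39.6 to 258 against 271 to 883 CPM in granulocyte-like cells. The patrolling monocyte markers reached a median of 29.5% of their patrolling level in classical monocyte-like cells, and Fabp4 29.2%. Their part in the result was not tested.

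Acsl1, which joins long-chain fatty acids to coenzyme A, had 17751 UMIs and passed 0 of 8 tests in each model with edgeR, with 2 at an unadjusted p under 0.05 in each, and DESeq2 also called 0. Its highest mean was in hepatocyte-like cells, at 297, 394 and 195 CPM in HFD+F+CCl4 mice, 191, 84.1 and 148 CPM in WD+F+CCl4 mice and 548 CPM in control replicate 1. The control value lies above all 6 NASH mice, and there was no test against 1 mouse. Granulocyte-like cells followed with 66.7 to 139 CPM in NASH mice and 132 and 118 CPM in control mice, then patrolling monocyte-like cells with 78.7 ± 12.9 CPM and plasmacytoid dendritic cell-like cells with 70.5 ± 15.3 CPM (SD, n = 6). In dendritic cell-like cells all 6 NASH mice (38.7 to 57.4 CPM) lay above both control mice (27.5 and 29.2 CPM), and in endothelial cell-like cells all 5 (12.4 to 27.3 CPM) lay below them (35.8 and 91.8 CPM). The log2 differences were 0.68 ± 0.25 and 0.79 ± 0.25 in the first (edgeR adjusted p = 0.145 and 0.0683) and -0.99 ± 0.44 and -1.26 ± 0.49 in the second (edgeR adjusted p = 0.359 and 0.302).

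Cpt1a, the gate through which long-chain acyl groups enter mitochondria for oxidation, had 26645 UMIs and was measured in every class. Classical and patrolling monocyte-like cells had the highest means, 109 ± 13.3 and 101 ± 12.3 CPM over NASH mice (SD, n = 6), and B cell-like cells the lowest, 45.4 ± 14.5 CPM, with overlap between all neighbours in the order. Against control it rose in dendritic cell-, granulocyte- and plasmacytoid dendritic cell-like cells in both models and in B cell-like cells of WD+F+CCl4 mice.

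In dendritic cell-like cells Cpt1a was 65.9, 68.4 and 43.0 CPM in HFD+F+CCl4 mice, 67.7, 65.9 and 60.5 CPM in WD+F+CCl4 mice and 21.98 and 17.54 CPM in control mice. Every NASH mouse lay well above both control mice, and the log2 difference was 1.49 ± 0.27 (edgeR adjusted p = 0.0119) and 1.66 ± 0.28 (edgeR adjusted p = 0.00469). The WD+F+CCl4 call was the only Cpt1a call kept without any 1 mouse, while the HFD+F+CCl4 call was lost without control replicate 1 (0.0843) or 2 (0.0751). Thinned to 1000 UMIs, 4.18% to 6.38% of dendritic cell-like cells of NASH mice had a Cpt1a UMI (25% to 34.4% unthinned), against 0.637% to 2.00% of those of control mice (2.53% to 14.8% unthinned), at median depths of 5445 and 3571 UMIs.

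In granulocyte-like cells Cpt1a was 74.8, 65.8 and 55.5 CPM, 92.0, 69.5 and 68.5 CPM, and 18.2 and 0 CPM in control mice. The 6 NASH mice lay above both control mice, which held 8 UMIs between them. The log2 difference was 1.95 ± 0.45 (edgeR adjusted p = 0.036) in HFD+F+CCl4 mice and 2.26 ± 0.44 (edgeR adjusted p = 0.0132) in WD+F+CCl4 mice. In plasmacytoid dendritic cell-like cells Cpt1a was 14.7, 54.7 and 48.3 CPM, 62.3, 57.4 and 49.4 CPM, and 11.97 and 25.5 CPM in control mice, so 5 of 6 NASH mice lay above both. The log2 difference was 1.64 ± 0.37 (edgeR adjusted p = 0.0223) and 1.96 ± 0.34 (edgeR adjusted p = 0.00187). In B cell-like cells it was 32.3, 46.2 and 29.2 CPM, 60.1, 64.8 and 40.0 CPM, and 28.2 and 32.3 CPM, and only the WD+F+CCl4 difference of 1.09 ± 0.27 passed (edgeR adjusted p = 0.0146, against 0.289 for 0.62 ± 0.31 in HFD+F+CCl4 mice). Without control replicate 1 these calls were lost, at an edgeR adjusted p of 0.193 and 0.119 in granulocyte-like, 0.392 and 0.161 in plasmacytoid dendritic cell-like and 0.192 in B cell-like cells. The granulocyte HFD+F+CCl4 call was also lost without control replicate 2 (0.0584), without replicate 1 (0.0547) or 2 (0.0616) of its own group, without replicate 1 (0.0505) or 2 (0.057) of the WD+F+CCl4 group, and without doublets (0.118). The plasmacytoid HFD+F+CCl4 call was lost without HFD+F+CCl4 replicate 2 (0.144) or 3 (0.109) and without doublets (0.0525), and the B cell call without WD+F+CCl4 replicate 1 (0.0706) or 2 (0.0701) and without doublets (0.0975).

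Macrophage markers were higher in these classes of NASH mice too, and their part in the Cpt1a calls was not tested. The exception was HFD+F+CCl4 replicate 3 in B cell-like cells, which lay below control replicate 2. In dendritic cell-like cells the 8 markers reached a median of 6.03% of their level in macrophage-like cells of the same mouse and Cpt1a 83.8%. The pair of values was 15.8% and 90.5% in granulocyte-like cells, 8.01% and 74.1% in plasmacytoid dendritic cell-like cells and 12.2% and 60.2% in B cell-like cells. In classical monocyte-like, T cell-like and endothelial cell-like cells every NASH mouse also had more Cpt1a than both control mice, without passing. Patrolling monocyte-like cells showed no such gap, with 81.8 to 114 CPM in NASH mice and 104 CPM, from 8 UMIs, in control replicate 1.

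Angptl4, a secreted inhibitor of lipoprotein lipase, had 5973 UMIs and was highest in the stellate cell- or fibroblast-like cells, at 115 and 169 CPM in the 2 HFD+F+CCl4 mice that had enough of them. Hepatocyte-like, Kupffer cell-like and macrophage-like cells followed at 37.5 ± 20.8 (n = 6), 35.8 ± 14.3 (n = 5) and 32.3 ± 10.4 CPM (n = 6). It passed 1 test of 7 in WD+F+CCl4 mice, in classical monocyte-like cells, with 11.2, 10.3 and 5.50 CPM there, 7.91, 9.68 and 3.04 CPM in HFD+F+CCl4 mice and 0.606 and 0 CPM in control mice. All 6 NASH mice lay above both control mice, which held 1 UMI. The ratio of pooled CPM was 18.2 (95% exact interval 3.25 to 721) in WD+F+CCl4 mice (edgeR adjusted p = 0.0455) and 10.4 (1.80 to 418) in HFD+F+CCl4 mice (edgeR adjusted p = 0.111). The call was lost without control replicate 1 (0.454) or 2 (0.106), without HFD+F+CCl4 replicate 1 (0.0537), without WD+F+CCl4 replicate 1 (0.0768) or 2 (0.0902), and without doublets (0.0785).

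In T cell-like cells Angptl4 was 8.77, 11.5 and 5.76 CPM in HFD+F+CCl4 mice and 12.6, 12.5 and 10.8 CPM in WD+F+CCl4 mice. Neither control mouse had a UMI in its 175 and 81 cells of this class. Against a floor of 3 counts over both control mice it was at least 1.79-fold higher in HFD+F+CCl4 and at least 2.61-fold higher in WD+F+CCl4 mice, without passing (edgeR adjusted p = 0.148 and 0.0655). Cluster 6, which stayed unnamed between T cell and NK cell, held 3143 and 699 control cells. Over all unnamed clusters together Angptl4 was 7.02 and 14.3 CPM in control mice and 7.86 to 21.5 CPM in NASH mice. In endothelial cell-like cells it was 25.9, 20.8 and 12.8 CPM, 12.4 and 33.6 CPM, and 3.58 and 0 CPM in control mice, and did not pass either (edgeR adjusted p = 0.107 and 0.0697). As a share of the macrophage-like level the Angptl4 median in T cell-like cells was 33.4%, beside 12.03% for the macrophage markers.

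Pdk4, a kinase that shuts off pyruvate dehydrogenase when fat is burned, was rare, with 665 UMIs in all. Endothelial cell-like cells had 28.3, 34.0 and 17.0 CPM in HFD+F+CCl4 mice, 18.6 and 33.6 CPM in WD+F+CCl4 mice and 17.0 and 18.4 CPM in control mice. The groups overlapped, and the log2 differences were 0.68 ± 0.46 and 0.81 ± 0.49 (edgeR adjusted p = 0.597 and 0.579). Cholangiocyte-like cells had 4.81 to 9.52 CPM in 5 NASH mice and no UMI in the control mice, whose 3-count floor of 8.54 CPM lies within that range. Stellate cell- or fibroblast-like cells had 24.7 CPM, from 29 UMIs, in HFD+F+CCl4 replicate 1, inside the endothelial range, and 0 CPM in HFD+F+CCl4 replicate 2. Hepatocyte-like cells of NASH mice had 0 to 14.0 CPM, and the lymphoid and myeloid classes had means under 1 CPM over NASH mice. In control mice these classes reached 5.85 CPM, from 2 UMIs in dendritic cell-like cells.

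Between the models, no member passed in any of 14 classes. With edgeR 0 of 96 tests passed, where 0.0152% of all tests did (0.00138% higher and 0.0138% lower), 7 members' tests had an unadjusted p under 0.05, and DESeq2 also called 0. In hepatocyte-like cells, the log2 difference of WD+F+CCl4 from HFD+F+CCl4 mice was -1.06 ± 0.36 for Acsl1 (edgeR adjusted p = 0.689), -1.23 ± 0.49 for Angptl4 (0.797) and -0.61 ± 0.27 for Cpt1a (0.799). All 3 WD+F+CCl4 mice were below all 3 HFD+F+CCl4 mice for Acsl1 and Cpt1a there, and Angptl4 overlapped. In patrolling monocyte-like cells, Pparg was 82.6 to 121 CPM in WD+F+CCl4 mice and 133 to 141 CPM in HFD+F+CCl4 mice, without overlap, at -0.43 ± 0.15 (edgeR adjusted p = 0.992). In macrophage-like cells it was 0.37 ± 0.20 (edgeR adjusted p = 0.573). Without WD+F+CCl4 replicate 3, 1 test passed.

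The other genes of the pathway gave the members' changes a wider frame. Of 87 genes in lists of uptake, activation, oxidation, ketone production, lipid droplets, PPAR partners and kinases, 77 could be tested in at least 1 class, in 505 tests. In HFD+F+CCl4 mice 17 tests were higher and 5 lower (4.36% passed, beside 3.39% of all genes), and in WD+F+CCl4 mice 28 were higher and 24 lower (10.3%, beside 6.07%). Between the models 0 of 851 passed with edgeR and with DESeq2, while 56 and 42 had an unadjusted p under 0.05. The most frequent call was Plin2, which coats lipid droplets, higher in 5 classes in HFD+F+CCl4 and 6 in WD+F+CCl4 mice. Lpl, the lipase that frees fatty acids from lipoproteins, was higher in 3 and 4 classes and Fabp5, the epidermal fatty acid binding protein, in 3 and 3.

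In B cell-like cells, Lpl was 106 ± 81.1 CPM (SD, n = 3) in HFD+F+CCl4, 182 ± 33.1 CPM (n = 3) in WD+F+CCl4 and 6.06 and 13.5 CPM in control mice. Plin2 there was 133 ± 83.5, 206 ± 58.3 and 16.7 and 34.3 CPM. The log2 difference of WD+F+CCl4 mice was 4.06 ± 0.48 for Lpl (edgeR adjusted p = 6.03e-05) and 3.49 ± 0.43 for Plin2 (edgeR adjusted p = 8.74e-05). Macrophage markers were higher in most NASH mice in this class, and their part in the Lpl and Plin2 calls was not tested. In granulocyte-like cells Plin2 was 356 ± 111 CPM in HFD+F+CCl4 and 532 ± 109 CPM in WD+F+CCl4 mice against 52.4 and 58.8 CPM in control mice, and Lpl passed next to it, at 2.39 ± 0.51 (edgeR adjusted p = 0.0252) and 3.10 ± 0.51 (edgeR adjusted p = 0.00526). In T cell-like cells Plin2 was the 1 pathway gene that passed, at 2.49 ± 0.45 (edgeR adjusted p = 0.043) and 3.13 ± 0.45 (edgeR adjusted p = 0.0147).

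In classical monocyte-like cells, the genes with the smallest adjusted p were Plin2, at 1.84 ± 0.30 and 2.44 ± 0.30 (edgeR adjusted p = 0.00845 and 0.00115), Fabp5 in HFD+F+CCl4 mice at 1.70 ± 0.34 (edgeR adjusted p = 0.0215) and Acadl, the long-chain acyl-CoA dehydrogenase of mitochondrial oxidation, in WD+F+CCl4 mice at 1.22 ± 0.20 (edgeR adjusted p = 0.00398). In dendritic cell-like cells, where Cpt1a rose in both models, Plin2 and Etfb, which passes electrons from acyl-CoA dehydrogenases to the respiratory chain, rose in both. Etfb was 120 ± 3.06 CPM in HFD+F+CCl4, 144 ± 11.7 CPM in WD+F+CCl4 and 61.4 and 72.8 CPM in control mice. Hadhb, of the mitochondrial trifunctional protein, went the other way there in WD+F+CCl4 mice, at 29.1 ± 1.21 CPM against 59.8 and 61.4 CPM in control mice (log2 difference -1.02 ± 0.17, edgeR adjusted p = 0.00534). Cd36, a fatty acid transporter and PPARγ target, was also lower in dendritic cell-like cells, at 60.5 ± 10.9 and 42.9 ± 19.5 CPM against 126 and 167 CPM in control mice (log2 difference -1.22 ± 0.31 and -1.72 ± 0.31, edgeR adjusted p = 0.0447 and 0.00681). In plasmacytoid dendritic cell-like cells Lpl rose in both models, at 2.11 ± 0.36 (edgeR adjusted p = 0.00449) and 2.80 ± 0.34 (edgeR adjusted p = 0.000105), and Plin2 in WD+F+CCl4 mice, at 2.38 ± 0.43 (edgeR adjusted p = 0.00257). In endothelial cell-like cells the 1 pathway gene that rose was Lipe, the hormone-sensitive lipase, in HFD+F+CCl4 mice, at 43.6 ± 5.45 CPM against 9.18 and 11.6 CPM (log2 difference 1.91 ± 0.43, edgeR adjusted p = 0.0499).

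Among the lower calls, Slc27a2, a liver fatty acid transporter, was lower in 2 classes in HFD+F+CCl4 and 5 of 6 in WD+F+CCl4 mice, and the peroxisomal thiolase Acaa1b in 5 of 8 in WD+F+CCl4 mice. Ncoa1, a coactivator of nuclear receptors, was lower in classical monocyte-like cells of HFD+F+CCl4 mice, at 53.2 ± 7.81 CPM against 76.4 and 120.0 CPM (log2 difference -0.75 ± 0.18, edgeR adjusted p = 0.0386), and Slc27a5, the bile acid-CoA ligase of the liver, in their dendritic cell-like cells (-3.69 ± 0.89, edgeR adjusted p = 0.0389). Slc27a2 in B cell-like cells was 14.1 and 16.0 CPM in control mice and 0 to 0.736 CPM in WD+F+CCl4 mice. In the classes with a lower Slc27a2 or Acaa1b call in WD+F+CCl4 mice, 11 to 17 of the 18 hepatocyte genes were lower as well, and the part of free hepatocyte RNA in these calls was not tested. In dendritic cell-like cells the sum of the 18 genes was 220 to 768 CPM in HFD+F+CCl4 mice and 1955 and 1854 CPM in control mice. The part of free hepatocyte RNA in the Slc27a5 call and in the Slc27a2 calls of HFD+F+CCl4 mice was not tested either. By list, the WD+F+CCl4 calls were 9 higher and 2 lower of 129 tests of mitochondrial oxidation, 7 higher and 2 lower of 63 of lipid droplets and lipolysis, 7 and 8 of 81 of uptake and binding, and 4 and 7 of 41 of peroxisomal and omega oxidation.

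**Figure D5:**
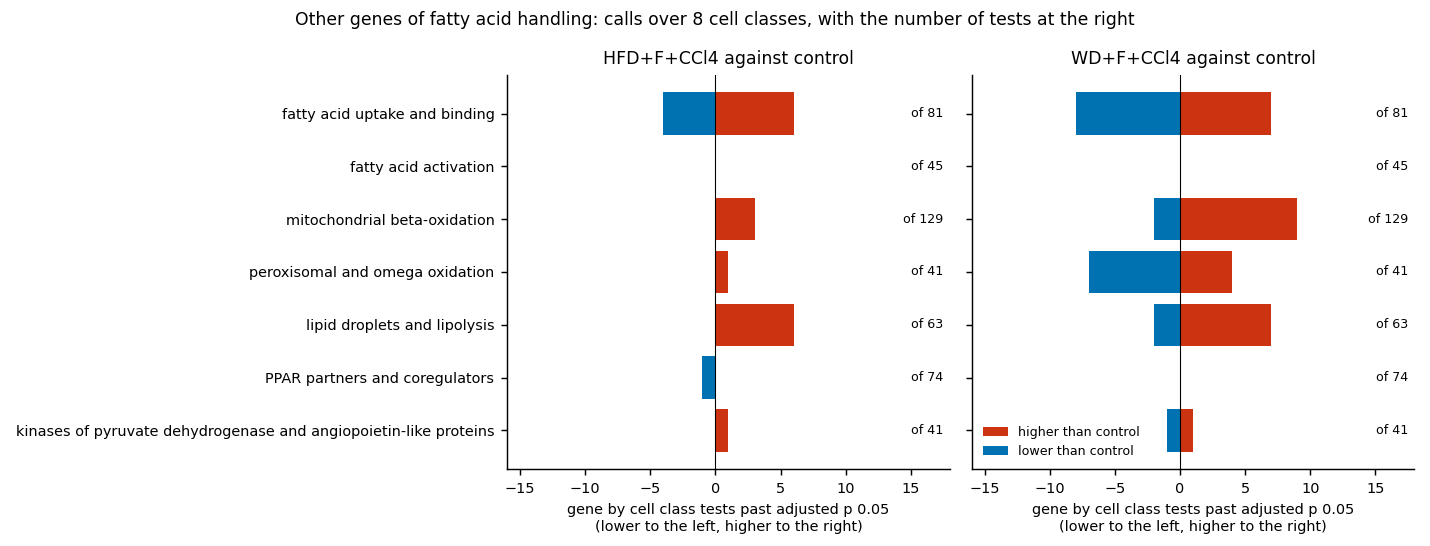
Number of tests with an adjusted p under 0.05, higher and lower in NASH than in control mice, for the lists of pathway genes named at the left over 8 classes, for each model, with the number of tests of each list at the right. Lipid droplet genes show 6 and 7 higher calls and mitochondrial oxidation genes 3 and 9, while peroxisomal and omega oxidation shows 7 lower calls in WD+F+CCl4 mice.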

How the data were processed

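Each of the 8 libraries (10x Genomics 3′ chemistry, V3) came from the liver of 1 mouse. The authors deposited raw UMI counts per gene and cell barcode, made with bcl2fastq 2.20 and Cell Ranger (4.0.0 in the matrix header) on GRCm38, with the 8 libraries joined in 1 matrix. Libraries held 6135827 (control replicate 2) to 64855024 UMIs, so control values are the least precise, and all intervals and floors cover counting error only.

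Cells over 500 genes and below a mitochondrial share of 25% were clustered with scanpy 1.11.5 (2000 variable genes, 30 principal components, 20 neighbours, Leiden resolution 0.8, 30 clusters), leaving 96 genes out, the members and pathway genes among them. A cluster was named where its marker score was at least 0.5 and 0.5 above the next class, with at least 3 markers in at least 10% of its cells. These limits were set with the data in view. Doublets stayed in the main counts, and their removal (0.8% of barcodes per 1000 in a library by Scrublet score, 7452 in all, since its own limit marked 0% to 0.0268% of the cells in 6 libraries and 3.24% and 13.8% in WD+F+CCl4 replicates 3 and 1) was an alternative. For shares of cells with a UMI, cells were thinned to 1000 UMIs, which left out 5422.

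Counts were summed per mouse and class with at least 20 cells, in classes where each group had at least 2 such mice, and tested with edgeR 4.0.16 (TMM scaling, filterByExpr with a minimum count of 10, quasi-likelihood test, the 3 groups in 1 fit, R 4.3.3), with Benjamini-Hochberg adjustment over all genes of a class and comparison and a threshold of 0.05. The standard error of a log2 difference was taken from the F value. The test was checked on simulated counts. DESeq2 1.42.0, other scalings, filters, cell limits, clusterings, covariates and leaving out each mouse were alternatives. Named genes are the 9 members, the 2 pathway genes with the smallest adjusted p in each direction in a class and comparison, and the 3 genes most alike each member. Of these, 1 pathway gene is not reported here. Members, lists and tests were chosen with earlier results of these data known, so no pattern here is independent support. Barcodes of unnamed clusters entered no test.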

Additional observations from a re-analysis of the deposited data

Results flagged for a closer look

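Of the 8 clusters that got no name and so entered no comparison, cluster 21 held Pparg UMIs in all 6 NASH mice and in neither control mouse. Its level there was 2.77 to 17.6 CPM in NASH mice, with a median of 13.9 CPM, against 0 CPM in both control mice. In the same cluster Cpt1a was 27.4 to 61.5 CPM in NASH mice and 19.8 and 44.4 CPM in control mice, and Fabp1 was 4.42 to 50.6 CPM in NASH mice and 56.3 and 205.9 CPM in control mice. The difference was not tested, and the part of doublets or free RNA in it was not tested either.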

How the results depend on the processing

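The main counts of member tests past the threshold were 8 for HFD+F+CCl4 against control, 16 for WD+F+CCl4 against control and 0 between the models. They came to 25, 28 and 4 with no filter beyond 1 count, where genes with very few UMIs enter the tests. With the hepatocyte RNA covariate they were 3 and 1 against control, without doublets 2 and 9, and with more than 1000 genes per cell, which leaves 4 classes, 5 and 8. Apart from the smaller number of classes, the cause of these shifts was not tested. Leaving out each mouse in turn gave 0 to 8, 3 to 16 and 0 to 1. The counts against control kept within 1.5 times with RLE factors, library totals, DESeq2, at least 50 cells per mouse, a 10% mitochondrial limit, resolution 0.42 and only the 2 groups compared. With the replicate number as a block they were 6, 14 and 0, and same-numbered mice share only a number, since their deviations correlated at -0.30 to 0.08. Of 452 repeats of called differences, 335 stayed past the threshold in the same direction, 114 lost it and 3 reversed. The reversed ones were Fabp1 in WD+F+CCl4 mice under the hepatocyte RNA covariate, at 0.45 in B cell-like, 0.52 in granulocyte-like and 0.32 in plasmacytoid dendritic cell-like cells. All 36 repeated mean levels moved by less than 1 SD. Depth limits what the control libraries can show, with no Pparg UMI in several classes of control replicate 2.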

Other observations

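Each member's profile over the 100 sums of mouse and cell class was compared with those of 9569 genes by Pearson's r of log2(CPM + 1), as a description in which sums of 1 library share its depth and its free RNA. Fabp1 was most like Akr1c6, Hpd and Apoc3 (r of 0.94 each), and Ppara most like Acat3 (0.89), Acox2 (0.88) and Fam25c (0.88). Pparg was most like Cd300e (0.81), Ms4a4a (0.79) and Ear2 (0.79), the first of which is a marker of patrolling monocytes used for naming. Fabp4 was most like Dusp3 (0.76), Thbd (0.74) and Plxnd1 (0.74), Cpt1a most like Znhit1 (0.83), Tm9sf4 (0.78) and Gsto1 (0.77), and Pdk4 most like Msrb3 (0.83), Khdrbs3 (0.82) and Spats2 (0.81). For Acsl1 the 3 genes were Acbd5 (0.74), Phyh (0.68) and Pnpla7 (0.66), for Angptl4 Fblim1 (0.74), Lmna (0.71) and Apoe (0.70), and for Ppard Fbh1 (0.76), Slc25a36 (0.71) and Tiparp (0.70). Among the members themselves, Ppara and Fabp1 were most alike (0.74), followed by Pparg with Cpt1a (0.57) and Ppara with Acsl1 (0.52).

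Over the 12822 cells of all unnamed clusters together, Pparg was 20.7 to 25.2 CPM in NASH mice and 0.498 and 2.28 CPM in control mice, and Cpt1a was 52.3 to 72.2 CPM against 20.9 and 41.96 CPM. These cells were not tested, and unnamed clusters made up different shares of the cells in the control and NASH libraries.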
